A study of Drosophila melanogaster with 2 samples.

Results

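The regions described here are places just before the start of a single protein-coding gene where chromatin bound by a GFP-tagged CG1663 protein was recovered from Drosophila melanogaster pupae. A region was taken when the summit of its peak, the base of highest enrichment, lay 1 to 500 bp upstream of the nearest annotated transcript start, when that start belonged to a protein-coding gene, and when no protein-coding start on the other strand lay within 500 bp of the summit. The members were taken from the deposited IDR-thresholded list, which keeps peaks by how reproducibly the replicates rank them (IDR, irreproducible discovery rate). Of its 9657 peaks, 1436 met this rule, or 14.9% (95% exact interval 14.2 to 15.6), at 1263 genes, and these are called members below. The remaining summits comprised 735 at divergent promoters, where coding genes start on both strands, 440 just downstream of a coding start, 335 nearest to a start of a noncoding gene and 6711 more than 500 bp from any start. Intervals of shares are exact (Clopper-Pearson) and cover counting error only.

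The study used chromatin immunoprecipitation followed by sequencing (ChIP-seq) with an anti-GFP antibody in 1 group, whole pupae of both sexes pooled and labelled 24 hours, of a transgenic line that stably expresses CG1663 with GFP at its C terminus. It has 2 biological replicates, numbered 1 and 3, each with a list of 30000 peaks, and both replicates carry the transgene. The labels do not say what drives the fusion protein or which pupal cells make it. The tissues behind each value therefore cannot be told apart, and no untagged line was analysed here. There is no second condition, and regions of one genome are not replicates, so values are given for the thresholded list and for each replicate, with no p-values.

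A promoter is the stretch around a transcript start where RNA polymerase II and the general transcription factors assemble. Core elements such as the TATA box and the initiator lie close to the start, while factors that bind particular DNA words often sit in the stretch before it, in stretches kept open by proteins such as the GAGA factor, which binds GAGAG repeats. At divergent promoters one open stretch serves genes on both strands, so a summit there cannot be given to 1 gene. The regions described here avoid that ambiguity among coding genes, although a gene with several transcript starts can hold several of them.

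The sequences below show what the strongest of these regions look like around the summit. They are the windows of the 6 strongest members whose sequence is shown, followed by the strongest member with a GATA word (AGATAA) and by the 3 strongest with a GAGA word (GAGAG) among the members within 50 bp of the start, a set chosen after its values were seen. Each is printed 5′ to 3′ on the strand of its gene, so the gene's start lies to the right, and base 51 is the summit. Windows held 101 bases, and the printed ones were cut short at an annotated exon. The values over all members further below used the uncut windows, which reach or run past the start where the summit lies within 50 bp of it. Capitals mark the poly-A word AAAAAA, the TATA box word TATAAA, the GATA word AGATAA and the GAGA word GAGAG on either strand, with overlapping matches of one word joined in a single run. The sequences come from the RefSeq Release 6 (dm6) genome. The window of CG14100 lies at chr3L:19590564-19590664 on the minus strand, that of Ugalt at chrX:2703853-2703934 (minus), that of larp at chr3R:28326543-28326643 (minus) and that of CG18549 at chr3R:12449120-12449220 (plus). The window of gish lies at chr3R:16280687-16280787 (plus), that of Hsp27 at chr3L:9383855-9383955 (plus) and that of bowl, a zinc finger transcription factor, at chr2L:3771443-3771543 (plus). The windows with GAGAG near the start are those of Nagk at chr3R:15343257-15343348 (minus), mub at chr3L:21879489-21879576 (plus) and bun at chr2L:12461257-12461319 (minus).
CG14100: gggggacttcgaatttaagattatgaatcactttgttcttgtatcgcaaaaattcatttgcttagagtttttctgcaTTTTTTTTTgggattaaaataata
Ugalt: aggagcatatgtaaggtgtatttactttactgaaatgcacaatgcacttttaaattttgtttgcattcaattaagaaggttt
larp: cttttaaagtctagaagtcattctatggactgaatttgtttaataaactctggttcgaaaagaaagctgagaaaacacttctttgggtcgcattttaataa
CG18549: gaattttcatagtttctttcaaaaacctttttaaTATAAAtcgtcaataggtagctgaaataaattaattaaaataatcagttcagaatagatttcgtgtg
gish: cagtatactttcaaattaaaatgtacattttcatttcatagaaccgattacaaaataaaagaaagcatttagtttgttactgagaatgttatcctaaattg
Hsp27: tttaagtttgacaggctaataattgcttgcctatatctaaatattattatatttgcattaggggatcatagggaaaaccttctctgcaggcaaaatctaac
bowl: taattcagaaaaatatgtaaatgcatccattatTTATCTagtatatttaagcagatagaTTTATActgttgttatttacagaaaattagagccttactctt
Nagk: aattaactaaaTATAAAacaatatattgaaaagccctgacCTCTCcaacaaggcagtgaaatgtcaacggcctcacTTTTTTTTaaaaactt
mub: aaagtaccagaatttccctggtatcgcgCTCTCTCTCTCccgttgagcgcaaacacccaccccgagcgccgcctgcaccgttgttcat
bun: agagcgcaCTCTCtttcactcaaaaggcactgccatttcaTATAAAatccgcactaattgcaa

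The windows of the strongest regions were rich in A and T, while those near a start differed among themselves. The GC content of the printed bases was 28.7% at CG14100, 29.3% at Ugalt, 31.7% at larp, 23.8% at CG18549, 24.8% at gish and 32.7% at Hsp27. At larp, gish, Hsp27 and Ugalt none of the 4 words was found, which says only that these letters are not in these windows. The GAGA window of mub held 58.0% GC, that of bun 41.3% and that of Nagk 31.5%.

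The strongest of all 9657 peaks was one of these regions. It lay 90 bp upstream of CG14100, with a deposited signal of 10166 in the thresholded list, and its matched peak ranked 1 in replicate 1 (signal 6358) and 3 in replicate 3 (signal 3837). Signal is the enrichment value that the peak caller wrote for each peak, and it can be compared within a list only. Ugalt, which encodes a transporter of UDP-galactose into the Golgi, had a summit 32 bp upstream with a signal of 8480, ranked 5 in replicate 1 and 6 in replicate 3. At larp, which encodes a La-related RNA-binding protein, the summit lay 329 bp before an internal start. Its signal was 8144, and it ranked 7 in replicate 1 and 5 in replicate 3. The region 126 bp before CG18549 had a signal of 7819 and ranked 9 and 7 in replicates 1 and 3.

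The next strongest regions lay at genes of varied function. The summit of mRpL41, a subunit of the mitochondrial ribosome, lay 137 bp upstream with a signal of 7698 (ranks 8 and 12 in replicates 1 and 3). Fkbp14, a peptidyl-prolyl isomerase of the endoplasmic reticulum, had a signal of 6497 (ranks 21 and 16), and gish, a casein kinase 1 gamma, a signal of 6224 (ranks 29 and 18). Hsp27, a small heat shock chaperone, had a signal of 6208 at 158 bp (ranks 18 and 30), and ph-p, a subunit of the Polycomb complex PRC1, a signal of 5493 at 456 bp (ranks 30 and 45). Of the glycolytic gene Gapdh2 the signal was 5203 (ranks 62 and 24), and of C1GalTA, a galactosyltransferase that builds O-linked glycans, 5158 (ranks 48 and 33). In these genes both replicates placed the region among their 100 strongest peaks.

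The other members among the 20 strongest were Tina-1 (signal 5636), CG3961 (5391), CG13921 (5342), osp (4884), CG1888 (4813), Trp1 (4784), CG31145 (4724), CG11357 (4626) and papi (4511). Trp1 encodes a homologue of the secretory translocation subunit Sec62, and papi a Tudor-domain protein of the piRNA pathway. All 20 lay within the 84 strongest peaks of both replicates. Only Ugalt and CG14100 of the 20 had a summit within 100 bp of the start, and the farthest of them was that of ph-p.

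Across all 1436 regions the median signal was 429 (quartiles 255 and 958, range 170 to 10166), against 385 over the whole list. Summits at divergent promoters had a median of 470, those just downstream of a coding start 281 and those away from starts 375. In the upper end of the list the order of the first pair was the other way round. The strongest 10% of the list held 234 of the regions described here, or 16.3% (14.4 to 18.3), 13.6% of the divergent summits (11.2 to 16.3), 5.68% of the downstream summits (3.71 to 8.27) and 8.24% of those away from starts (7.59 to 8.92). In replicate 1 the shares of upstream and divergent summits were 17.6% and 16.4%, and in replicate 3 they were 13.7% and 10.5%. The upstream and divergent intervals overlapped in all 3 lists, whereas the downstream share lay below the upstream share in each list with no overlap of the intervals.

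**Figure D1:**
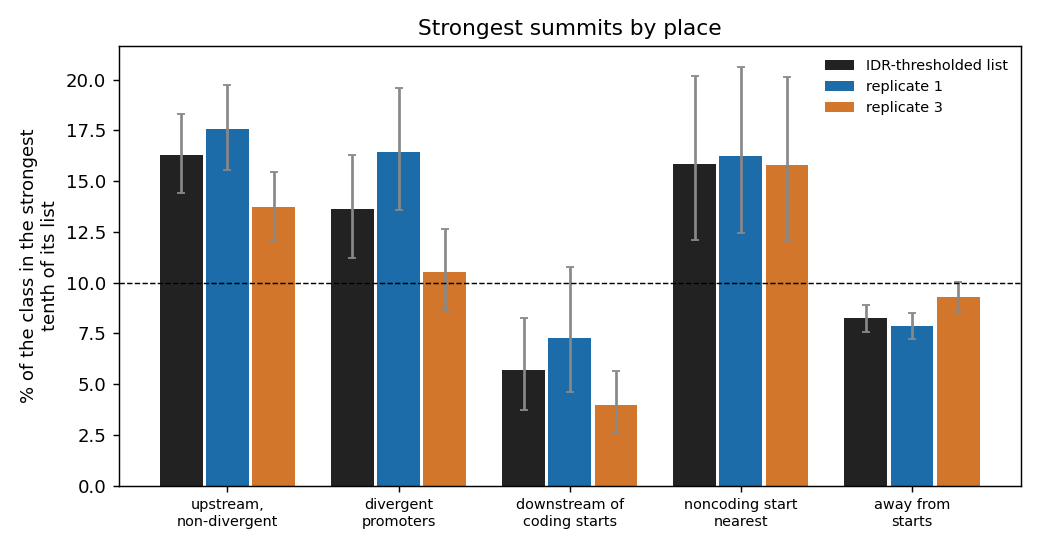
Share of each class of summit (percent, y axis) that lies among the strongest 10% of its list, for 5 classes of place and the IDR-thresholded, replicate 1 and replicate 3 lists; grey bars are 95% exact intervals and the dashed line marks 10%. Upstream non-divergent summits stand at 16.3%, 17.6% and 13.7% in the 3 lists, and downstream summits at 5.68%, 7.26% and 3.96%.

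The lowest signals among the members belonged to dnr1, an inhibitor of caspase and immune signalling (signal 170 at 24 bp), rdx, an adaptor of the Cul3 ubiquitin ligase (170 at 4 bp), and Tap42, a partner of protein phosphatase 2A (170 at 66 bp). At these 3 genes the weak summit lay within 100 bp of the start. The summit of dnr1 had no matched peak in replicate 1 and one of rank 5170 in replicate 3. A second summit of rdx, 328 bp upstream of a start of that gene, had a signal of 1927.

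In the thresholded list and in replicate 1, summits were most frequent 101 to 300 bp before the start, whereas in replicate 3 they were as frequent within 100 bp as at 201 to 300 bp or more so. They thinned out towards 500 bp in all 3 lists. The median distance was 201 bp (quartiles 120 and 302), 220 bp in replicate 1 and 174.5 bp in replicate 3. To allow for the sequence open to the rule, summits were counted per megabase of the 6 Mb in which a summit could have met it. In the thresholded list there were 222 summits per Mb at 1 to 50 bp, 212 at 51 to 100 bp, 324 at 101 to 200 bp, 305 at 201 to 300 bp, 213 at 301 to 400 bp and 119 at 401 to 500 bp. The signal was lowest next to the start. Its median was 244 at 1 to 50 bp and 291 at 51 to 100 bp, and it lay between 468 and 566 in the 4 bins farther out.

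The replicates differed most within 100 bp of the start and least beyond 200 bp. At 1 to 50 bp replicate 1 had 70 summits, or 97.7 per Mb, and replicate 3 had 246, or 343 per Mb. At 51 to 100 bp the densities were 159 and 325 per Mb, at 101 to 200 bp 312 and 380, at 201 to 300 bp 302 and 295, and at 401 to 500 bp 132 and 115. The share of members within 100 bp of the start was thus 13.5% in replicate 1, 28.1% in replicate 3 and 21.1% in the thresholded list. Each replicate list was read down to its 9657 strongest peaks for these values, and the read depth behind the lists is unknown.

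**Figure D2:**
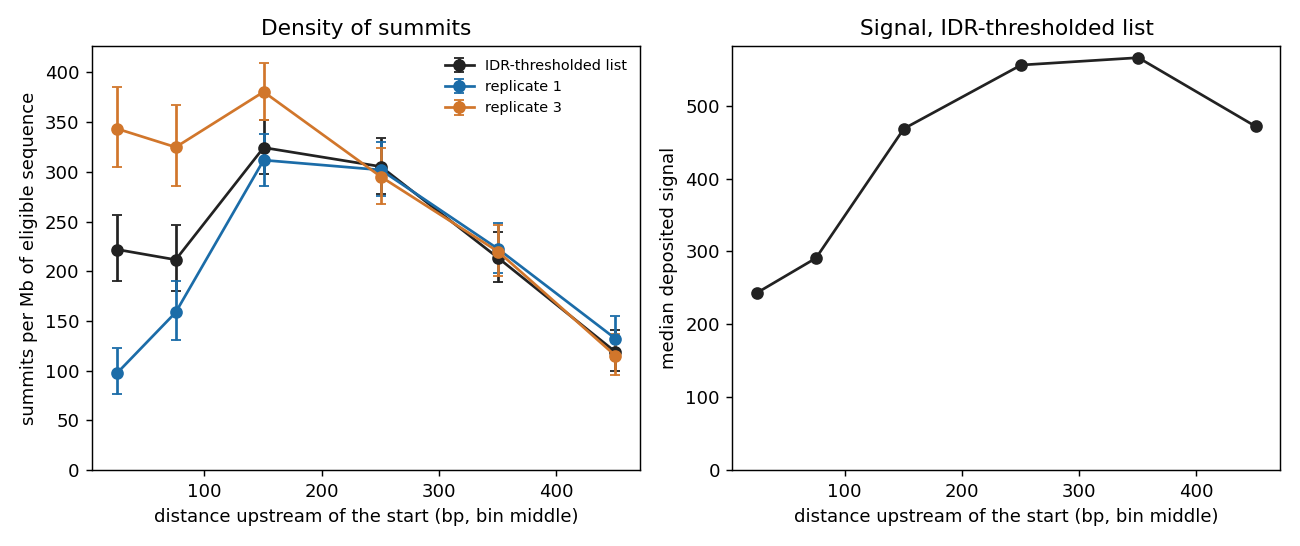
Left, summits per megabase of sequence open to the rule (y axis) against distance upstream of the start (x axis, bp) in the IDR-thresholded list and the 9657 strongest peaks of each replicate, with 95% exact intervals; right, median deposited signal in the thresholded list. At 1 to 50 bp the replicates stand at 97.7 and 343 per Mb, while from 201 bp on their lines run together.

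At the near end of the window 6 members had a summit 1 bp upstream of the start. The strongest of them was that of Sqor, the gene of sulfide quinone oxidoreductase, with a signal of 2069 and ranks 612 and 451 in replicates 1 and 3. The farthest lay 500 bp before stv, which encodes a BAG-domain co-chaperone, with a signal of 291 and ranks 6273 and 6572. Just outside the window, the summit before retn lay 501 bp away with a signal of 607.

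The same split showed in how often a replicate held a peak at the region. Of the 1436 members, 1340 (93.3%, 91.9 to 94.6) overlapped one of the 9657 strongest peaks of replicate 3 by at least 1 bp, against 86.4% of all summits in the thresholded list. In replicate 1 the count was 1231 (85.7%, 83.8 to 87.5), against 92.1% of all summits. Both replicates held a peak at 1142 members, replicate 1 alone at 89, replicate 3 alone at 198 and neither at 7. The share with a peak in both was 79.5% of members, close to the 79.1% of all summits in the list. Members differed from the list in the split between the replicates. Replicate 1 alone held 6.2% of members and 12.96% of all summits, and replicate 3 alone 13.8% and 7.25%. Of the 198 found in replicate 3 alone, 61.1% (53.9 to 67.9) lay within 100 bp of the start, their median distance was 84.5 bp and the median GC content of their windows was 47.5%. Of the 1142 found in both, 14.7% (12.7 to 16.9) lay that close and the median GC content was 29.7%. Of the 89 found in replicate 1 alone, 12.4% (6.33 to 21.0) lay within 100 bp. Distance, GC content and replicate thus moved together, and the part of GC content in the difference between the replicates was not tested.

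Among the 1325 members with a matched peak anywhere in both lists of 30000, summits were placed alike, with a median shift of 9 bp from the thresholded summit in each replicate. Ranks by signal were also alike, with a Spearman correlation of 0.859 across these members, which share libraries and a control and are described without a test. The members come from a list filtered for reproducible peaks, a selection made on the replicates' own ranking, so this value describes the filtered list and not the replicates as a whole. Within the list the correlation differed with distance. At 201 to 300 bp the correlation was 0.933 and 49.9% of members ranked higher in replicate 3. At 1 to 50 bp the correlation was 0.456 and 85.5% ranked higher in replicate 3, with a median rank of 8964 in replicate 1 and 5769 in replicate 3. Divergent summits had a correlation of 0.896 and downstream summits one of 0.643. The share that ranked higher in replicate 3 was 56.1% over all members, 53.04% of divergent summits and 68.5% of downstream summits. Of summits away from starts, only 33.6% did so. Members were above this last share in every distance bin, with the lowest value, 41.8%, at 401 to 500 bp.

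**Figure D3:**
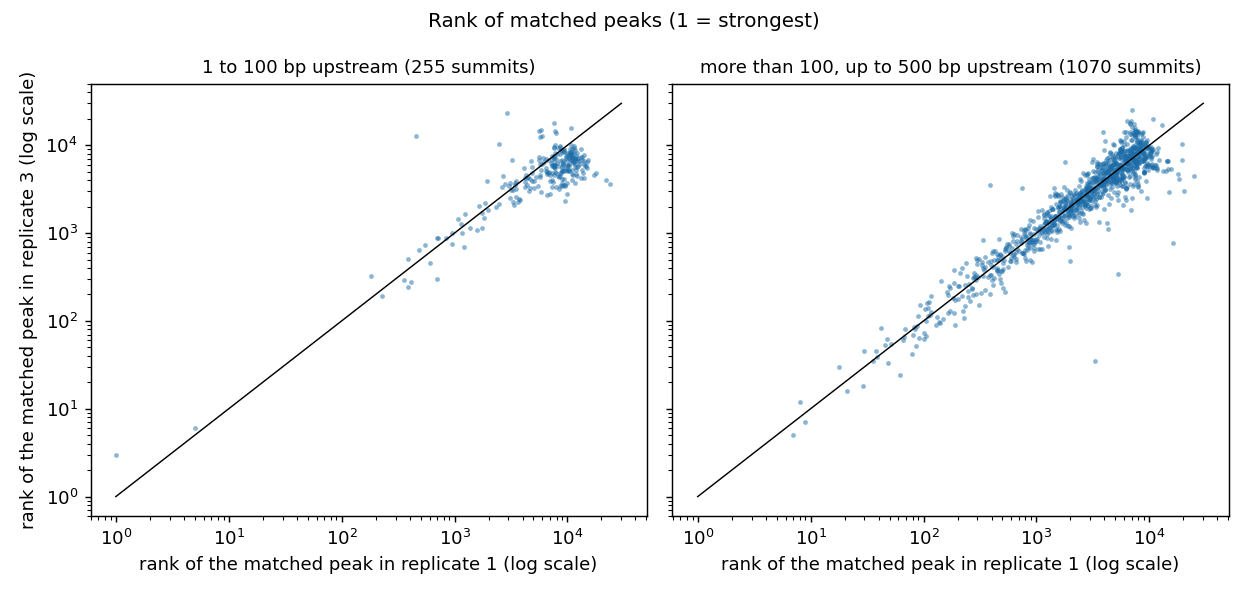
Rank of the matched peak in replicate 1 (x axis, log scale) against its rank in replicate 3 (y axis, log scale; 1 is the strongest) for 255 members within 100 bp of the start and 1070 members farther out; the line marks equal ranks. Near the start most points lie below the line (78.0% rank higher in replicate 3), and farther out they scatter on both sides of it (50.8%).

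The following members differed most in rank, taken among those that were the closest thresholded summit to both matched peaks. Points far from the line outside this set can be second summits that were matched to the same replicate peak as a stronger one. Pgant1, which starts O-linked glycan chains, ranked 2890 in replicate 1 and 23047 in replicate 3. CG6966 ranked 7016 and 25282, and red 6403 and 18900. The matched summit of replicate 3 lay 206 bp away at Pgant1 and 131 bp away at red, beyond the shift of 76 bp that 95% of members did not exceed, so these ranks may belong to another site, while at CG6966 it lay 2 bp away. In the other direction CG5966 ranked 25073 in replicate 1 and 4519 in replicate 3, CG2145 23866 and 3621, and Mnt, a repressor that pairs with Max in the Myc network, 21869 and 4037. The matched summit of replicate 1 lay 71 bp away at CG2145 and 75 bp away at Mnt. Both shifts are just beyond the 70 bp that 95% of members did not exceed in replicate 1, so these ranks, too, may belong to another site. At CG5966 the shift was 31 bp. The windows of CG5966, CG2145 and Mnt had GC contents of 51.5%, 52.5% and 52.5%, and those of Pgant1, CG6966 and red 42.6%, 43.6% and 31.7%.

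Most of the regions lay outside transcribed sequence or in introns. Of the 1436 summits, 745 (51.9%, 49.3 to 54.5) lay between genes, 574 in introns, 60 in a 5′ UTR, 31 in a 3′ UTR and 3 in a coding exon. Many belonged to internal promoters. The start was the outermost of its gene for 882 members (61.4%, 58.8 to 63.9), and the other 554 lay inside their own gene before an alternative start. Outer and internal members had median signals of 424 and 443, a small gap beside their quartile ranges of 246 to 920 and 261 to 1059. No other summit lay within 1000 bp of 1029 members (71.7%, 69.2 to 74.0).

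The next gene upstream ran on the same strand for 785 members and on the other strand for 651, with median signals of 436 and 423. By chromosome arm, density was 279 summits per Mb of open sequence on X, 257 on 3L, 233 on 2L, 228 on 3R and 214 on 2R. The small chromosome 4 held 3 members, or 60.7 per Mb.

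Genes with several starts held these regions more often. Of all 10806 protein-coding genes with sequence open to the rule (called open genes below, with no statement on their chromatin), 11.7% had a member in the thresholded list, 10.7% in replicate 1 and 13% in replicate 3. The share was 7.09% (6.52 to 7.69) for genes with 1 start, 15.7% for 2, 29.4% for 3, 38.5% for 4 and 54.7% (47.4 to 62.0) for 5 or more. Per Mb of open sequence the density was 167 for genes with 1 start and 278, 384, 375 and 391 for those with 2, 3, 4 and 5 or more. The density per open sequence was thus higher, too, for genes with more than 1 start.

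A single member was found at 1117 genes, 2 at 127, 3 at 14, 4 at 2 and 5 at 3 genes. The genes with 5 were Rtnl1, a reticulon that shapes the endoplasmic reticulum, Ptpmeg2, a tyrosine phosphatase, and SNF4Agamma, the gamma subunit of AMP-activated kinase. Along Rtnl1, which has 7 starts, the signals were 4174, 2306, 1532, 574 and 233. In Ptpmeg2 they were 3627, 2435, 2251, 1065 and 681, and in SNF4Agamma 1966, 796, 432, 219 and 209. Summits within one gene thus differed in rank. In the thresholded list the ranks ran from 82 to 7511 in Rtnl1, 126 to 2710 in Ptpmeg2 and 584 to 8267 in SNF4Agamma. Some of these summits share a start or a peak and are not independent. The genes with 4 were dnc, a cAMP phosphodiesterase with signals of 2450, 1920, 397 and 389, and Moe (moesin), which ties actin to the membrane, with signals of 471, 471, 424 and 385.

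The windows of 101 bases around the members were poorer in G and C than those of like place without a summit. The median GC content was 30.7% for the 1436 members and 37.6% for 11537 background windows, set 201 bp before each non-divergent coding start with no thresholded summit within 1000 bp. For comparison, divergent summits had a median of 27.7%, downstream summits 41.6% and summits away from starts 29.7%. The gap was not the same at all distances. At 1 to 50 bp the members held 49.5% GC and background windows of that distance 43.6%, whereas at 201 to 300 bp the medians were 28.7% and 37.6%.

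In percentage points over the background, simple A and T words were the ones most in excess. AAAAAA was found on either strand in 28.6% (26.2 to 31.0) of member windows and 22.2% (21.4 to 22.96) of background windows, and TATAAA in 23.5% (21.4 to 25.8) and 17.3% (16.6 to 18.0). The excess of TATAAA did not lie next to the start. At 1 to 50 bp it was in 11.9% (7.35 to 18.03) of members and 19.2% of background windows of that distance. At 51 to 100 bp the shares were 15.97% and 18.2%, and at 201 to 300 bp 30% and 17.1%. In the other bins beyond 100 bp the share of members was also above the background. Other classes of summit held AAAAAA and TATAAA as well. TATAAA was in 32.0% of divergent windows, 26.1% of those away from starts and 12.95% of downstream windows, and AAAAAA in 28.7%, 30.5% and 37.3%. The excess of TATAAA over the background went with GC content. Below 30% GC it was found in 37.1% of members and 36.9% of background windows, between 30 and 40% in 17.6% and 17.3%, and at 40% or more in 6.53% and 5.01%. AAAAAA differed in the last of these classes, with 16.8% (13.3 to 20.9) of members and 9.92% (9.09 to 10.8) of background windows. In these classes the background windows lay 201 bp before the start and members at all distances, so distance was not matched. AGATAA was found in 9.26% (7.81 to 10.9) of members and 7.23% (6.76 to 7.72) of background windows. Of the 8-base words ranked on X, 2L and 3L, TATAAATA came first, and it was found in 4.24% (2.76 to 6.19) of members and 2.83% of background windows on the remaining arms. A match is a description of letters and not evidence of a bound factor.

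GAGAG was distributed by distance. Over all members it was found in 14.3% (12.5 to 16.2) of windows, against 12.8% (12.2 to 13.4) of background windows. At 1 to 50 bp, where the windows of mub and bun belong, it was in 22.6% (16.4 to 29.9) of members and 13.3% of background windows, and at 51 to 100 bp in 25.7% (18.8 to 33.6) and 15.5%. From 101 bp on the shares were between 10% and 13.6% in members and between 9.96% and 14.4% in the background. At a GC content of 40% or more GAGAG was found in 32.9% (28.3 to 37.8) of members and 21.1% (19.97 to 22.3) of background windows. Those background windows lay 201 bp before the start and the members at all distances, so distance was not matched in this comparison. By signal, GAGAG was in 7.52% of the strongest 359 members and in 23.4% of the weakest 359, whose median GC contents were 27.7% and 41.6%.

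**Figure D4:**
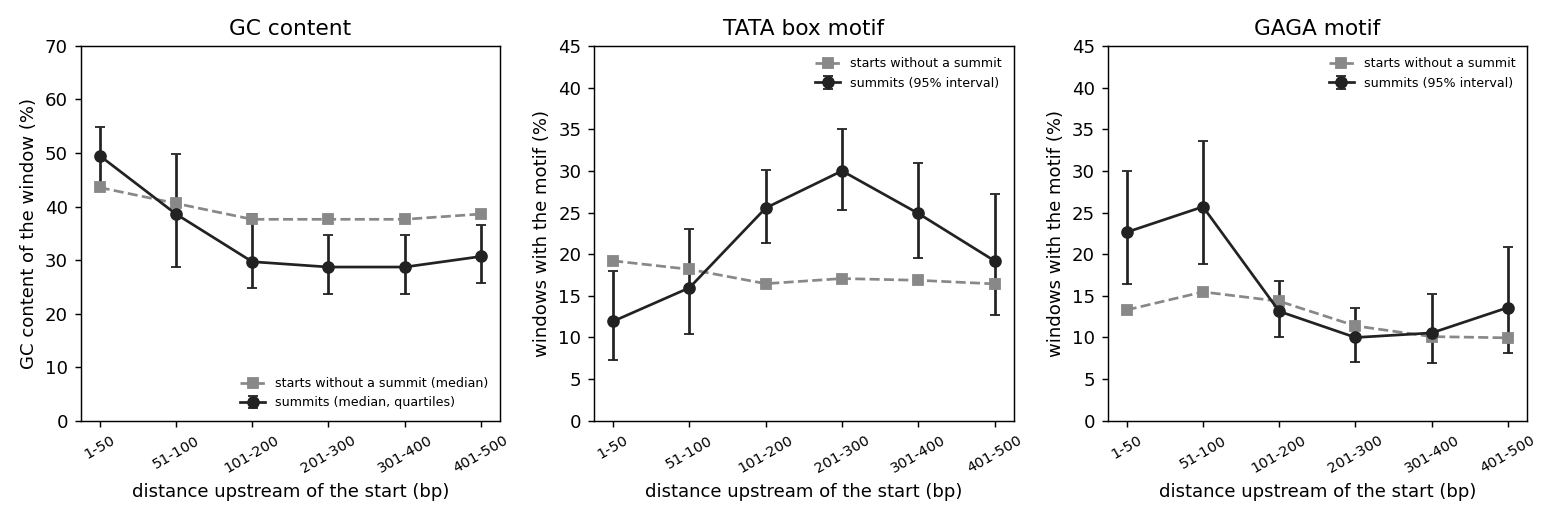
Median GC content (percent, with quartiles for members), and the percent of windows with the TATA box word or the GAGA word on either strand (with 95% exact intervals), against distance upstream of the start in bp; squares are windows of the same length and distance at starts without a summit. The GAGA share of members stands above the background in the bins at 1 to 50 and 51 to 100 bp and beside it farther out.

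Most other core promoter and factor words were at or below the background share. Among the exceptions, CATCNCTA, a core promoter word named Motif 7, was in 1.46% (0.907 to 2.23) of members and 0.607% (0.473 to 0.766) of background windows, and GGTCACAC, the core of the M1BP site, in 0.766% (0.383 to 1.37) and 0.286% (0.197 to 0.401). With background windows set at the members' own distances the background shares were 0.789% and 0.598%, so the excess of the M1BP core depended on where the background was taken. The initiator word TCAGT was in 16.4% (14.5 to 18.4) of members and 15.9% of background windows. The DRE core TATCGATA, the site of the replication-related factor DREF, was in 0.627% (0.287 to 1.19) and 0.685%. GCCAT, the core of the site of the Polycomb recruiter Pho, was in 11.7% (10.1 to 13.5) of members and 16.6% (15.9 to 17.3) of background windows. The remaining words were searched on both strands in the same way. GAANNTTC, of the heat shock element, was in 2.37% of members and 3.10% of background windows, AGGTCA, a single arm of the ecdysone receptor site, in 1.67% and 2.45%, TGGGAA, for Su(H), in 4.39% and 5.95%, and GCTGCT in 4.04% and 5.83%. CGATA, for BEAF-32, which is also part of the DRE core, was in 12.3% and 13.1%. CACACA was in 6.48% and 7.42%, the E-box words CACGTG and CAGCTG in 1.04% and 1.19% and in 3.34% and 3.94%, and GGTATTTT in 0.905% and 0.832%. The shares were 1.88% and 2.62% for CAGGTA (Zelda), 1.74% and 2.45% for TGANTCA (AP-1), 1.60% and 1.97% for TGACGT, 1.04% and 1.39% for AACNGGTT (Grainyhead), 1.32% and 2.53% for GGGCGG and 2.51% and 4.03% for GGAATG (Scalloped). Counting all those named above, 24 words were searched.

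The gene groups below are read against the 11.7% of all open genes that had a member. Glycolysis, the pathway from glucose to pyruvate and lactate, had a member at 6 of its 11 open genes (54.5%, 23.4 to 83.3), with 6 in replicate 1 and 7 in replicate 3. Its genes have many starts, and all open genes with the same numbers of starts had a member in 24.5% of cases, a value near the lower end of the interval. Behind Gapdh2 the signals were 4210 at Eno (enolase), 3522 at Hex-A (hexokinase), 1635 at Ldh (lactate dehydrogenase), 1271 at Pgk (phosphoglycerate kinase) and 561 at PyK (pyruvate kinase). Their summits lay 212, 184, 179, 297 and 395 bp upstream, so none of them was close to the start. Ranks in replicates 1 and 3 were 101 and 62 for Eno, 190 and 89 for Hex-A, 865 and 784 for Ldh, 1269 and 1163 for Pgk and 3913 and 2824 for PyK. With the outermost start of each gene alone, or with a window of 200 bp, 3 glycolytic genes were counted. Oxidative phosphorylation had 1 of 45 open genes (2.22%, 0.0562 to 11.8), against 11.9% for the same numbers of starts, the ATP synthase subunit blw with a signal of 694. In each replicate alone, and with the outermost starts, 2 of its genes were counted.

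The ecdysone response, the set of genes around the steroid hormone that drives metamorphosis, had a member at 14 of 38 open genes (36.8%, 21.8 to 54.0), with 11 in replicate 1 and 15 in replicate 3, against 19.6% for all open genes with the same numbers of starts. The receptor gene EcR had a summit 319 bp upstream with a signal of 575, and shd, whose enzyme makes the active hormone 20-hydroxyecdysone, one with a signal of 554. The strongest was that of E23, an ABC transporter, with a signal of 4308 and ranks 69 and 80 in replicates 1 and 3. Next came Ldh (signal 1635), which also stood in the glycolysis group, so the groups share this member. Among the hormone-induced regulators the signals were 1124 at Eip93F, 939 at Eip74EF, 265 at br, 243 at Eip75B, 232 at ftz-f1 and 228 at Eip78C. The last 4 stood in the weaker part of the list. Eip75B had no matched peak in replicate 1. The count of 14 fell to 6 with the outermost starts, 7 with a window of 200 bp and 8 with the stronger 50% of peaks.

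In the Notch pathway, which passes signals between touching cells, 8 of 28 open genes had a member (28.6%, 13.2 to 48.7), with 10 in replicate 1 and 8 in replicate 3, against 10.2% for all open genes with the same numbers of starts. Their ranks in the thresholded list ran from 287 to 9365. The signal was 2680 at numb, an inhibitor of the receptor, 1821 at neur, a ubiquitin ligase for its ligands, 1613 at the coactivator mam, 2162 at the corepressor gro and 2447 at the target E(spl)m7-HLH. Both replicates ranked these 5 within their 948 strongest peaks. The other members were weak, with a signal of 265 at the receptor gene N, 201 at insc and 177 at E(spl)mbeta-HLH, also a target. With the outermost starts, a window of 200 bp or the stronger 50% of peaks 5 genes were counted.

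The EGF receptor and Ras pathway had 8 of 23 open genes (34.8%, 16.4 to 57.3), 6 in replicate 1 and 11 in replicate 3, against 14.6% for genes with the same numbers of starts. Strong summits lay at its ligand gene spi (signal 2857, ranks 188 and 376), at aos, a secreted inhibitor (2406, ranks 420 and 308), at edl, a regulator of its Ets-domain factors (2235, ranks 502 and 390), and at the repressor gene cic (1435, ranks 952 and 1156). The receptor gene Egfr (177 at 4 bp) and rho (177 at 42 bp), whose protease releases the ligand, had summits near the lowest signal of the list. The outermost starts gave 4 genes and a window of 200 bp gave 2.

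The insulin and TOR pathway had 9 of 29 open genes (31.0%, 15.3 to 50.8), 7 in replicate 1 and 10 in replicate 3, against 16.5% for genes with the same numbers of starts. The transcription factor REPTOR had a signal of 2689 (ranks 292 and 289), the PI3 kinase regulatory subunit Pi3K21B one of 1386 and foxo one of 877. SNF4Agamma and Mnt, named above, also belong to this group. Between REPTOR and Pi3K21B stood SNF4Agamma, with 1966 at the strongest of its 5 members. Mnt followed foxo, with 797 at the stronger of its 2 members. The receptor gene InR had a summit 16 bp upstream with a signal of 243, and Thor, which encodes the translation inhibitor 4E-BP, one 26 bp upstream with a signal of 186. The ligand genes Ilp6 and Ilp7 had signals of 205.4 and 190. The stronger 50% of peaks held 5 of the 9 genes.

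Among other signalling groups, shares were 7 of 22 for Dpp and TGF-beta (31.8%, 13.9 to 54.9), 6 of 19 for Hippo (31.6%, 12.6 to 56.6), 6 of 25 for Wnt (24.0%, 9.36 to 45.1) and 3 of 9 for Hedgehog (33.3%, 7.49 to 70.1). The shares for genes with the same numbers of starts were 15.1%, 15.4%, 17.1% and 14.98%, each inside the interval of its group. Replicate 1 alone gave 4, 4, 5 and 2 of these genes and replicate 3 alone 8, 8, 8 and 4. Their strongest members were Mad, the Dpp signal transducer (signal 940), shn, its nuclear partner (524), and dally, a glypican (251). In Hippo they were the cadherin gene ft (2623), app, a palmitoyltransferase (1688), and Tgi (741). In Wnt, gish was followed by sgg, the GSK-3 kinase (3413), and nkd, a feedback inhibitor (1195). In Hedgehog, rdx was followed by Cul3 (195) and the receptor gene ptc (181).

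Cytoplasmic ribosomal protein genes had members of a different kind. Of 56 open genes 14 had one (25%, 14.4 to 38.4), against 14.9% for genes with the same numbers of starts. Their summits lay a median of 38 bp from the start, 11 of the 14 within 100 bp, and their signals ran from 176 at RpL17 to 439 at RpL26, all in the lower or middle part of the list. RpL24 had a signal of 407 at 2 bp, RpL31 one of 377 at 19 bp and RpL26 one at 67 bp. In replicate 3 all 14 had a matched peak and 13 of these were among its 9657 strongest, but at 7 of the 13 the summit in that replicate lay just downstream of the start. At RpL24, for example, the summit lay 3 bp upstream in replicate 1 and 17 bp downstream in replicate 3. In replicate 1, 10 of the 14 had a matched peak among the strongest, at 8 of which the summit also met the rule. The matched summit lay upstream in replicate 1 and downstream in replicate 3 at 4 genes (RpL8, RpL22, RpL24 and RpL31), upstream in both at 5 and downstream in both at RpS29, and 4 genes had no matched peak in replicate 1. Counted in each replicate alone the group had 13 genes in replicate 1 and 8 in replicate 3. Without members within 100 bp of the start 3 of these genes were left, the stronger 50% of peaks held 2, and the outermost starts gave 9.

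Translation factors were similar in place, with 10 of 46 open genes (21.7%, 10.9 to 36.4; 15.4% for genes with the same numbers of starts), and 7 of their 11 summits lay within 100 bp. The strongest were eIF5B, which joins ribosomal subunits (signal 1036 at 140 bp), eEF1gamma (594 at 38 bp) and eIF2D (397 at 168 bp). Of the heat shock group 7 of 28 open genes had a member (25%, 10.7 to 44.9), against 15.1% for the same numbers of starts, with Hsp26 (1606) and the J-domain co-chaperone mrj (741) behind Hsp27. In the vesicle traffic and glycosylation group it was 13 of 72 (18.1%, 9.98 to 28.9), against 12.9%, with Ugalt, the endosomal GTPase gene Rab5 (2317) and the syntaxin gene Syx4 (1573) in front.

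In the cell cycle group 8 of 27 open genes had a member (29.6%, 13.8 to 50.2), against 15.8% for genes with the same numbers of starts, led by Dp, the partner of E2F (1604), the cyclin gene CycE (1599) and the Cdk inhibitor dap (511). The Polycomb and Trithorax groups had 6 of 20 (30%, 11.9 to 54.3), against 15.7%, with ph-d (645) and tara (268) behind ph-p. The cell death group had 4 of 17 (23.5%, 6.81 to 49.9), against 13.03%, among them the death inducers hid (2717) and egr (376) and the phosphatase puc (2107). The cytoskeleton group had 8 of 30 (26.7%, 12.3 to 45.9), against 18.1%, led by the actin gene Act87E (616), futsch (333) and the profilin gene chic (315). Act87E also stood in the sarcomere group, which had 5 of 28 (17.9%, 6.06 to 36.9), below the 24.2% for the same numbers of starts, with sls (997), the Drosophila titin, in front and the tropomyosin gene Tm1 (452) behind. All of these intervals held the share for the same numbers of starts. With the stronger 50% of peaks the cell cycle group kept a count of 5, the Polycomb and Trithorax groups 2 and the cytoskeleton group 1. With the outermost starts these counts were 4, 3 and 3.

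Few members lay at chemosensory, cuticle and ion channel genes. Chemosensory receptors had 1 of 165 open genes (0.606%, 0.0153 to 3.33), Gr77a with a signal of 424, where genes with the same numbers of starts gave 8.39%. Cuticle proteins had 5 of 103 (4.85%, 1.59 to 11.0), led by Cpr72Ea (605), Cpr12A (373) and the chitin synthase gene kkv (246), against 8.01%, a value inside the interval. Ion channels and synapse genes had 2 of 43 (4.65%, 0.568 to 15.8), against 19.3%. Those were elav, a neuronal RNA-binding protein gene with a signal of 3243 and ranks 225 and 128, and Hk, a potassium channel subunit gene with a signal of 1262. Both replicates gave counts close to these, with 1 in each for the receptors, 5 and 4 for cuticle proteins and 3 and 2 for the ion channels.

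The interval of the share held the 11.7% of all open genes in the remaining groups, as it did for oxidative phosphorylation, Wnt, Hedgehog, heat shock, translation factors, vesicle traffic, cell death, sarcomere and ion channels above. The remaining groups were immune genes with 5 of 39, led by cact (1292), PGRP-LE (283) and Dif (229), the proteasome with 3 of 29, namely Rpn11 (453), Prosalpha2 (240) and Rpn12 (180), and the group of RNA polymerase II, its cofactors and Mediator with 3 of 30, namely Taf4 (872), MED6 (205.2) and TfIIEbeta (195). Hox and appendage patterning genes had 7 of 36, led by so (909), Dll (829) and ct (409). Chromatin remodelling genes had 3 of 21, namely nej (545), Kdm2 (467) and Kdm5 (280), and insulator proteins 2 of 15, row (1751) and fs(1)h (183). Autophagy genes had 2 of 12, Vps15 (646) and Atg8a (400). Mitochondrial ribosomal proteins had 2 of 21, mRpL41 and mRpL19 (189). The group of the tricarboxylic acid cycle and pyruvate entry had 2 of 15, Idh (275) and muc (212). For tRNA synthetases it was 1 of 15, AlaRS (263), and for splicing factors 1 of 13, B52 (171). The share for genes with the same numbers of starts lay inside the interval of each of these remaining groups. It ran from 7.50% for mitochondrial ribosomal proteins to 19.7% for the tricarboxylic acid cycle and pyruvate entry.

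**Figure D5:**
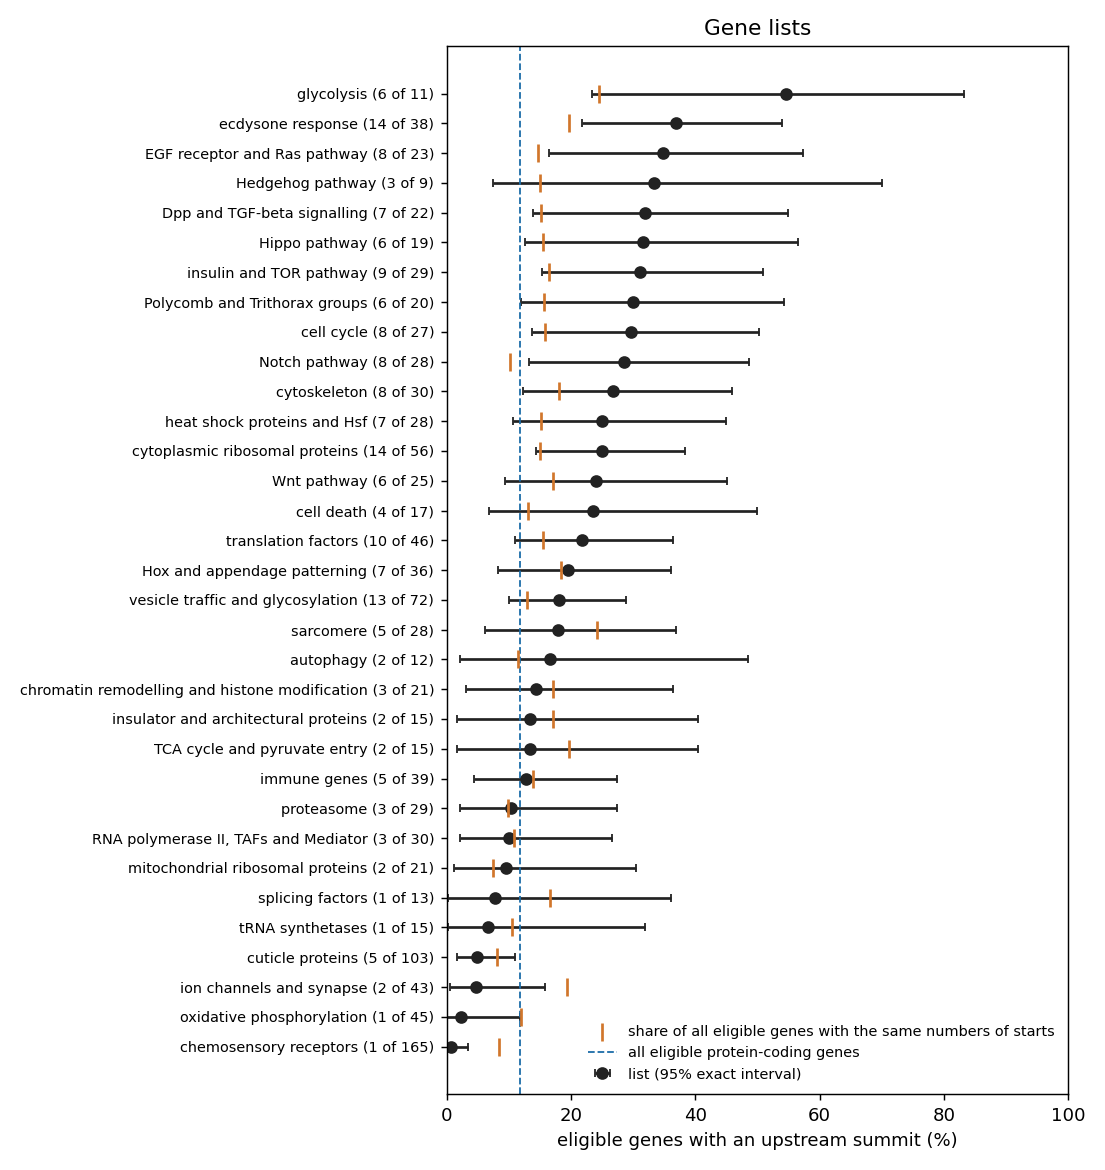
Percent of open genes with a member (x axis) for the 33 gene lists, with 95% exact intervals and counts in the labels; the dashed line marks the 11.7% of all open protein-coding genes and orange ticks mark the share of all open genes with the same numbers of starts. Glycolysis stands highest at 54.5% and chemosensory receptors lowest at 0.606%.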

How the data were processed

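Peaks had been called for replicate 1 and replicate 3, each against the same control, on dm6, and the IDR-thresholded list had been derived from these and the pooled list, per the README the authors deposited. Neither the peak caller nor its version or thresholds are stated in the sources used. Signal is the deposited column 7 and the summit is the peak start plus the deposited distance in column 10. The lists carry no totals of reads, which leaves the depth unknown, and precision comes from the number of regions or genes. Starts were those of Ensembl release 115 (BDGP6), and sequence came from the RefSeq Release 6 genome.

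Of 13945 protein-coding genes on 6 arms, 10806 had at least 1 position at which a summit could meet the rule, called open here. A member was matched to a replicate by an overlap of at least 1 bp. Of 779 gene list entries 22 were not matched to a gene. Background windows lay at starts without a thresholded summit within 1000 bp. Python 3.11.15, numpy 2.4.6, scipy 1.17.1 and matplotlib 3.10.9 were used, and the assignment of summits and the motif search were tested on simulated data.

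The members, gene lists and motifs were chosen with earlier results of these data known. Named genes were the 20 strongest members, up to 3 of the strongest in each list, the 3 members in each direction with the largest difference in rank, the 5 genes with most members, the 3 weakest members and those at the ends of the window. Further genes of the glycolysis, ecdysone, Notch, EGF receptor, insulin and ribosomal lists, and the GAGA sequences near a start, were chosen after their values were seen. Alternatives were each replicate alone, the stronger 50% of peaks, other definitions of starts, summits, windows, overlaps and background, and, chosen after seeing the data, leaving out members within 100 bp of the start, classes of GC content and shares by number of starts.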

Additional observations from a re-analysis of the deposited data

How the results depend on the processing

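No paired analysis was possible because there is 1 group, so no other group shares the replicate numbers. In each replicate alone, members ranged from 1315 to 1662, genes from 1156 to 1406, the median distance from 174.5 to 220 bp, the share within 100 bp from 13.5 to 28.1%, the median rank from 41.1 to 48.7% of the list, GC content from 29.7 to 33.7%, the share between genes from 51.4 to 52.2%, and the excess over background, in percentage points, from 4.41 to 8.55 for TATAAA, 3.86 to 8.76 for AAAAAA and -1.85 to 5.13 for GAGAG. The stronger 50% of peaks held 784 members at 712 genes, with 9.69% within 100 bp, 50.8% between genes, a TATAAA excess of 11.0 points and a GAGAG excess of -3.24. The outermost start alone gave 938 members, 79.4% between genes, a TATAAA excess of 9.45 and a GAGAG excess of -1.61. This setting raises the share between genes by construction, because a summit before the outermost start cannot lie inside its own gene. A window of 200 bp gave 714 members at 690 genes, and one of 1000 bp a median distance of 256.5 bp. Without members within 100 bp, the median distance was 237 bp, the median rank 37.2% of the list (44.7% with them) and the GAGAG excess -1.15, against 1.47 over all members. Midpoints of peaks put 51.1% between genes, and windows of 100 bp to each side held 33.8% GC. Matches to replicate 1 and replicate 3 were 75.2 and 81.5% at 50% overlap of both peaks, 83.1 and 90.1% for summits within 100 bp, 94.3 and 97.8% with all peaks, 97.0 and 97.5% for the 1000 strongest, and 98.2% in each for the stronger 50% of peaks. Counts of genes moved by over 1.5 times in 24 of the 33 lists with the stronger 50% of peaks, 18 with the outermost start, 16 and 9 with windows of 200 and 1000 bp, 10 without members within 100 bp, and 5 and 3 without replicates 3 and 1. The cause was not tested, apart from fewer peaks or narrower windows leaving fewer members.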
